A study of Mus musculus with 12 samples.

Results

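Voltage-gated sodium channels carry the upstroke of the neuronal action potential, and 8 genes that encode their accessory proteins are described here in primary brain cultures of newborn *Myt1l* (+/−) and (+/+) mice. The genes were picked by symbol in the deposited count table and fall into 3 beta subunits (*Scn2b*, *Scn3b*, *Scn4b*), 4 intracellular fibroblast growth factors (*Fgf11*, *Fgf12*, *Fgf13*, *Fgf14*) and 1 anchoring protein, ankyrin G (*Ank3*). All 8 were found among 55397 listed genes, and all 8 passed the filter on low counts that left 18264 genes for testing. The study gave its mutant cultures a drug that blocks sodium channels, and the question here was whether the accessory genes of these channels differed between the genotypes.

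The cultures came from 3 (+/−) animals (505, 506 and 508) and 3 (+/+) animals (510, 511 and 513), each sequenced as 2 libraries that were summed, so that 1 animal was 1 replicate. The (+/−) animals carry 1 *Myt1l* allele with a CRISPR-made deletion of 7 bp in exon 6 that shifts the reading frame, and the (+/+) animals are the unmutated controls. All pups were taken at P0, all cultures received 2 µM Ara-C, which kills dividing cells, and RNA was harvested at DIV11 by the study's text. The labels give cortex and C57BL/6J, whereas the study's text describes hippocampal or cortical cultures and C57BL/6N mice. Markers of both regions were present, with means of 15.2 CPM for *Emx1* and 31.5 CPM for *Prox1* in the (+/+) animals. CPM are read counts scaled to library size, here after TMM scaling, which sets the libraries to a shared level over most genes. The mutant mRNA is not degraded according to the labels, so *Myt1l* counts do not check the genotypes. Every animal is labelled male, but the (+/+) animal 511 had 18805 counts of the female-specific RNA *Xist* and 0 counts over Y-linked genes, against 5 to 10 *Xist* counts in the other 5 animals. Values without animal 511 are therefore given as well. Totals were 40642699 to 52833161 counts per animal.

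Beta subunits are single-pass membrane proteins with an immunoglobulin-like outer domain that bind the pore-forming alpha subunit, change its gating and take part in cell adhesion. The intracellular FGFs share the fold of secreted growth factors but stay in the cell, where they bind the tail of the alpha subunit and set how fast channels inactivate. Ankyrin G holds channels at the axon initial segment, the place where action potentials start.

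Per length, *Fgf13* had the highest level of the 8 genes and *Scn4b* the lowest. In the (+/+) animals *Fgf13* reached 59.1 ± 5.79 CPM per kilobase of annotated exons (SD, n = 3). *Scn3b* followed with 23.7 ± 4.51 and *Fgf11* with 17.2 ± 3.23 CPM per kilobase. *Scn2b* had 13.4 ± 0.985 CPM per kilobase. These middle neighbours were not separated, since the animals' values overlapped between *Scn3b* and *Fgf11* and between *Fgf11* and *Scn2b*. *Fgf12* had 9.23 ± 1.16, *Ank3* 6.51 ± 0.580 and *Fgf14* 4.15 ± 0.519 CPM per kilobase. *Scn4b* had 0.561 ± 0.0521 CPM per kilobase, and *Fgf14*, the next gene up, was 7.39-fold higher. The order of the means was the same in the (+/−) animals, from 42.3 CPM per kilobase for *Fgf13* to 0.524 for *Scn4b*. The order rests on the length used, because *Ank3* has 47 annotated transcripts and 34838 exon bases in all. On its longest coding transcript, *Ank3* had 22.8 CPM per kilobase, above *Fgf11*.

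**Figure D1:**
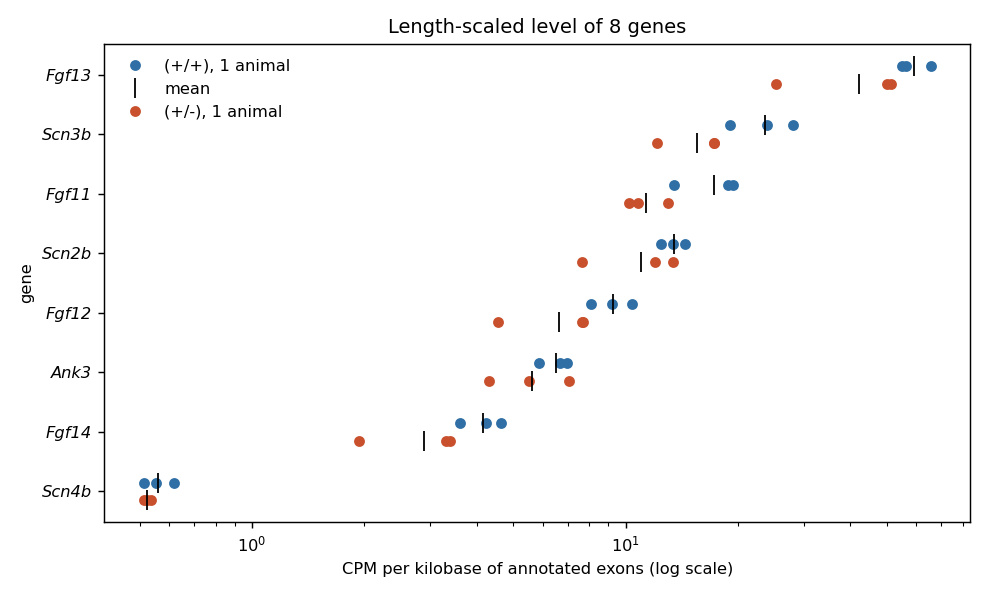
CPM per kilobase of annotated exons on a log axis for the 8 genes, ordered by the (+/+) mean, with 1 dot per animal and a bar at each mean (n = 3 per genotype). *Fgf13* is at the top with a (+/+) mean of 59.1 and *Scn4b* at the bottom with 0.561, and the order of means is the same in both genotypes.

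Within each family, the share taken by each of the 7 beta subunit and FGF genes overlapped between the genotypes. *Fgf13* made up 66.0% ± 2.51 (SD, n = 3) of the length-scaled level of the 4 intracellular FGFs in (+/+) and 66.0% ± 5.12 in (+/−) animals. *Fgf11* made up 19.1% and 18.9%, *Fgf12* 10.3% and 10.6%, and *Fgf14* 4.62% and 4.57%, in the same order of genotypes. Of the 3 beta subunits, *Scn3b* made up 62.5% ± 4.24 in (+/+) and 57.7% ± 2.23 in (+/−) animals. The *Scn2b* share was 36.0% ± 4.09 against 40.3% ± 2.69, and *Scn4b* made up 1.5% against 2.01%.

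Against the (+/+) controls, all 8 genes had negative log2 fold changes in the (+/−) cultures, from −0.61 to −0.10, and 0 of the 8 passed the test. The 4 intracellular FGFs had a median log2 fold change of −0.51, and the 3 beta subunits one of −0.29. For 5 genes, *Scn3b* and the 4 intracellular FGFs, every (+/−) animal was below every (+/+) animal, whereas *Scn2b*, *Scn4b* and *Ank3* overlapped. Such a separation was found for 13.5% of all tested genes, and 49.6% of them had a negative log2 fold change. The median of the 8 genes was −0.48, against 0.0031 over all genes. In bulk RNA, fewer cells of a type and less RNA per cell cannot be told apart.

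The test was edgeR's quasi-likelihood test with Benjamini-Hochberg adjustment over 18264 genes and a threshold of 0.1, and 0% of the genes passed it in either direction, with a smallest adjusted p of 0.166. At an unadjusted p under 0.05 the same test gave 4080 genes (22.3%), of which 9.11% of all genes were lower and 13.2% higher in (+/−). Among the lower ones were 4 of the 8 members, *Scn3b*, *Fgf11*, *Fgf12* and *Fgf14*. The Wald test of DESeq2 called 1377 genes higher and 786 lower (4.3% of all genes), among them *Scn3b* (adjusted p = 0.0431) and *Fgf11* (adjusted p = 0.0242). With genetic sex as a covariate DESeq2 called 0.192% of the genes lower and 0 members. This covariate marks animal 511 alone, so genetic sex cannot be told apart from that animal. Without the low-count filter, edgeR called the same 2 members beside 1.4% of all genes. Voom of limma was run on the 12 libraries with a within-animal correlation shared by all genes. Its p-values still count more samples than there are animals. It called the 5 separated members beside 11.6% of all genes, or 10.4% with a replicate block.

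**Figure D2:**
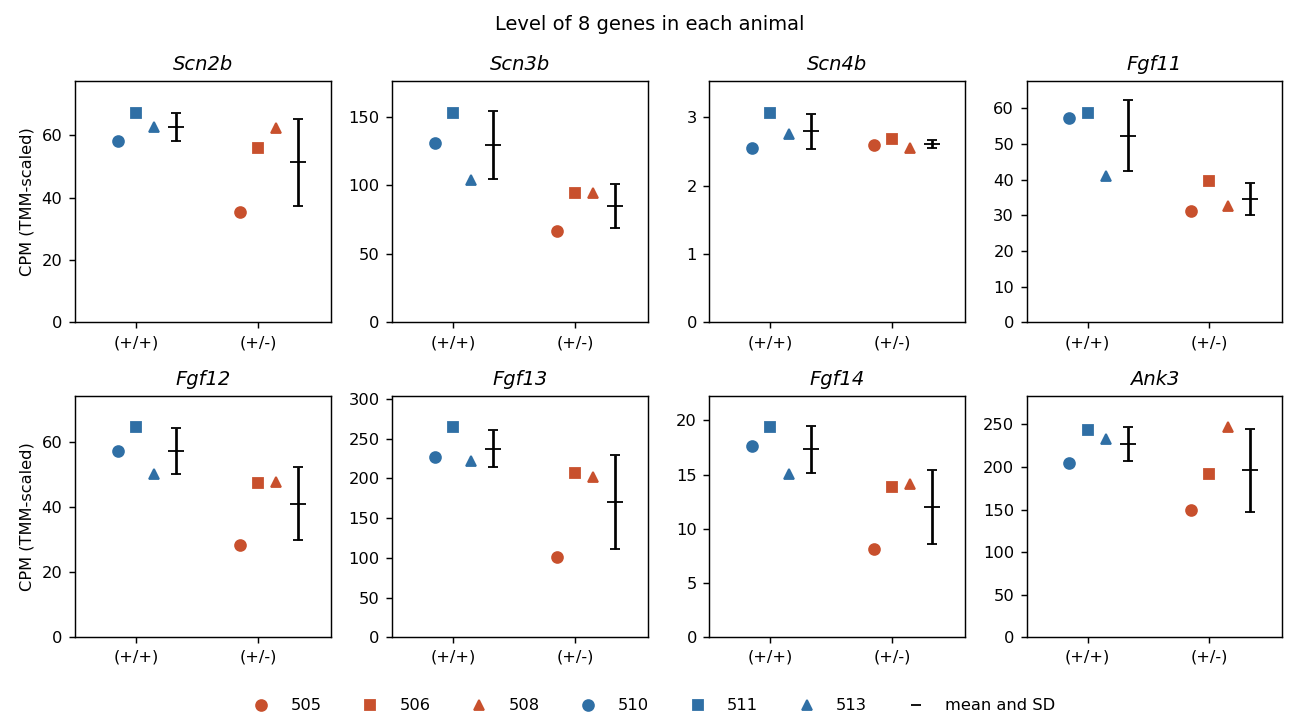
TMM-scaled CPM (linear axis from 0) of the 8 genes in each of 6 animals, (+/+) in blue and (+/−) in red, with the mean and SD beside each genotype (n = 3). Every red point is below every blue point for *Scn3b*, *Fgf11*, *Fgf12*, *Fgf13* and *Fgf14*, and animal 505 is the lowest for 7 of the 8 genes.

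*Fgf13*, also called FHF2, lies on chromosome X (59062145 to 59568071 of mm10, minus strand) and has several alternative first exons that give different amino ends. It had 102 CPM in animal 505, 207 in 506 and 201 in 508, against 227 in 510, 264 in 511 and 221 in 513. Animal 505 stood far below the other 5, and both other (+/−) animals lay just under the lowest control. The means were 170 ± 59.3 CPM in (+/−) and 238 ± 23.3 CPM in (+/+) animals (SD, n = 3). The log2 fold change was −0.48 (SE 0.25, 95% interval −1.07 to 0.10, adjusted p = 0.274 from edgeR). It was −0.22 without animal 505 and −0.40 without animal 511. Animal 511, which carries no Y-linked counts, had the highest value of this X-linked gene, but it was the highest for 7 members in all. Its *Fgf13* value lay 0.16 above the (+/+) mean on the log2(CPM + 0.5) scale, within its range of 0.10 to 0.26 over all members. An effect of X linkage on this value was not tested.

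MYT1L binds DNA with the core motif AAAGTT, and *Fgf13* was the only one of the 6 members with a promoter entry that held these letters, which is why its stretches are shown. The promoters are RefSeq's for GRCm38.p6, the assembly that mm10 names, and the search covered the 250 bases before each start, on both strands. Matches were found in 3 of 12 windows of these 6 genes, against 12.4% of all 32851 windows, and all 3 belong to *Fgf13*. Each window starts at a different first exon on the minus strand of chromosome X, and all 3 matches read as AACTTT, the reverse complement, in capitals below.
*Fgf13*, chrX:59585573-59585601, 17 bases before its start: aaagccaaggggAACTTTaggacttgagg
*Fgf13*, chrX:59166099-59166128, 28 bases before its start: agatatgccttaAACTTTctctgatctctc
*Fgf13*, chrX:59134625-59134654, 206 bases before its start: ctggcaccggccAACTTTtgccggtcttca
The first of these starts is outside the *Fgf13* model of the count table, and the stretch of the second overlaps an annotated exon. A match of 6 letters is a description of the window and not a binding site.

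*Fgf12* (FHF1, chromosome 16, 28160098 to 28753068, minus strand) had 28.3, 47.4 and 47.6 CPM in animals 505, 506 and 508. The controls 510, 511 and 513 had 57.2, 64.5 and 50.1 CPM. The genotypes did not overlap, and 505 was again far below both other (+/−) animals. The log2 fold change was −0.48 (SE 0.20, 95% interval −0.95 to −0.01, adjusted p = 0.218 from edgeR), −0.27 without animal 505 and −0.39 without 511.

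*Fgf14* (FHF4, chromosome 14, 123977907 to 124677127, minus strand), a regulator of channels at the axon initial segment, was the FGF with the lowest level. Its values were 8.11, 13.8 and 14.2 CPM in the (+/−) animals 505, 506 and 508 and 17.6, 19.4 and 15.1 CPM in the (+/+) animals 510, 511 and 513. The 6 animals had the same order as for *Fgf12*, with no overlap. *Fgf14* had a log2 fold change of −0.53 (SE 0.22, 95% interval −1.03 to −0.03, adjusted p = 0.211 from edgeR), which was −0.31 without animal 505 and −0.44 without 511.

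*Fgf11* (FHF3, chromosome 11, 69796068 to 69801857, minus strand) is the shortest of the 4 FGF genes. It had 31.1, 39.6 and 32.8 CPM in animals 505, 506 and 508, against 57.3, 58.9 and 41.1 CPM in 510, 511 and 513. Here 505 did not stand apart, since 508 was close to it, and the control 513 lay just above the highest (+/−) animal. This gave a log2 fold change of −0.60 (SE 0.16, 95% interval −0.97 to −0.24, adjusted p = 0.166 from edgeR). It was −0.53 without animal 505, −0.51 without 511 and −0.76 without 513, where the adjusted p from edgeR was 0.0237 and 5.95% of all genes were called lower.

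*Scn3b* (chromosome 9, 40269217 to 40291618, plus strand), a subunit that binds the alpha subunit without a covalent bond, had the largest fold change of the 8. It had 66.4, 94.1 and 94.2 CPM in animals 505, 506 and 508. The controls had 131 CPM in 510, 153 in 511 and 104 in 513, and no control reached down to the (+/−) values. Its log2 fold change was −0.61 (SE 0.18, 95% interval −1.03 to −0.18, adjusted p = 0.168 from edgeR). It was −0.46 without animal 505, −0.47 without 511 and −0.75 without 513, the last with an adjusted p of 0.0549 from edgeR.

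*Scn2b* (chromosome 9, 45117782 to 45130070, plus strand), whose protein is joined to the alpha subunit by a disulfide bond, overlapped between the genotypes. It had 35.5, 56.0 and 62.2 CPM in animals 505, 506 and 508 and 58.1, 67.2 and 62.5 CPM in 510, 511 and 513. Animal 505 was the lowest by far, 506 lay just under the controls and 508 was at their level. The log2 fold change was −0.29 (SE 0.19, 95% interval −0.74 to 0.16, adjusted p = 0.365 from edgeR), −0.08 without animal 505 and −0.24 without 511.

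*Scn4b* (chromosome 9, 45138395 to 45154152, plus strand) starts 8324 bp after the end of *Scn2b* and encodes the other beta subunit that forms a disulfide bond. It was the most sparsely sampled member, with 104 to 138 counts per animal. Its values were 2.60, 2.68 and 2.56 CPM in animals 505, 506 and 508 and 2.56, 3.07 and 2.76 CPM in 510, 511 and 513. All 6 animals lay close together, and 505 was not the lowest. A log2 fold change of −0.10 (SE 0.16, 95% interval −0.46 to 0.27, adjusted p = 0.705 from edgeR) was fitted, and −0.03 without animal 511. Unlike its neighbour *Scn2b*, *Scn4b* had no low value in animal 505.

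*Ank3* (chromosome 10, 69398773 to 70027438, plus strand) had 149.7, 192 and 246 CPM in animals 505, 506 and 508. The controls 510, 511 and 513 had 204, 243 and 233 CPM, so that animal 508 was the highest of all 6 while 505 was the lowest. The log2 fold change was −0.21 (SE 0.18, 95% interval −0.63 to 0.20, adjusted p = 0.466 from edgeR), −0.05 without animal 505 and −0.16 without 511. Counts per gene do not separate the isoforms of *Ank3*, of which 31 transcripts are coding, nor the alternative starts of *Fgf12* and *Fgf13*.

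The exact two-sided permutation test of a single gene over 3 against 3 animals cannot go below p = 0.1, and each of the 5 separated genes had that value. *Scn2b* had p = 0.2, *Scn4b* p = 0.4 and *Ank3* p = 0.4 in this permutation test. Both libraries of an animal differed by at most 1.16-fold in CPM for 7 of the genes and by up to 1.36-fold for *Scn4b*. With either library alone, 6 (library 1) or 4 (library 2) members were separated, beside 13.3% and 13% of all genes.

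Animal 505 carried much of the size of the differences for *Fgf12*, *Fgf13*, *Fgf14*, *Scn2b* and *Ank3*, and less of it for *Scn3b* and *Fgf11*. Without 505 the log2 fold change went from −0.61 to −0.46 for *Scn3b* and from −0.60 to −0.53 for *Fgf11*. That of *Scn4b* was −0.10 with and −0.09 without this animal. The median position of 505 over the 8 genes was −0.87 relative to the (+/+) mean on the log2(CPM + 0.5) scale, against −0.25 in both 506 and 508. Animal 505 was the lowest of the 6 animals for 7 genes, and the (+/+) animal 511 was the highest for 7 genes. Without 505, 5 members were still separated, as were 16.9% of all genes, and without 511 again 5, beside 15.2% of all genes.

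Neuronal markers moved in the same direction. All 18 pan-neuronal markers, such as *Rbfox3*, *Snap25* and *Tubb3*, had negative log2 fold changes with a median of −0.46. Beside 13.5% of all genes, 8 of the 18 markers were separated downwards, and 0 passed the test. Their summed level ran from 4473 to 7600 CPM in (+/−) and from 7939 to 8978 CPM in (+/+) animals. Their mean position was −0.95 in animal 505, −0.31 in 506 and −0.18 in 508, against −0.10 to 0.10 in the controls. Their part in the lower values of the 8 genes was not tested.

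**Figure D3:**
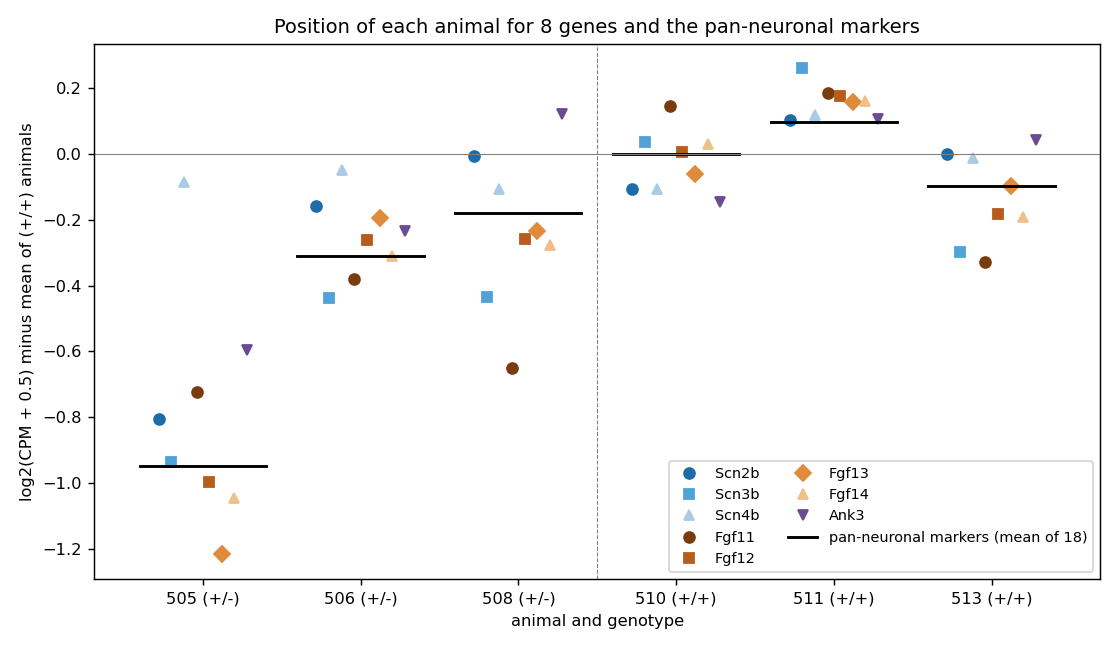
Log2(CPM + 0.5) of each of the 8 genes minus the mean of the (+/+) animals, per animal, with a black line at the mean of the 18 pan-neuronal markers. In animal 505 the line is at −0.95 and 7 of the 8 points lie far below 0, with *Scn4b* near 0, and in the controls the points lie around 0.

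Set against the mean of these 18 markers in the same animal, *Scn3b* and the 4 FGFs lay closer to the controls, whereas *Scn2b*, *Scn4b* and *Ank3* lay above them on average. The log2 difference between the genotypes was −0.07 for *Fgf13*, −0.03 for *Fgf12* and −0.06 for *Fgf14*, and the animals overlapped for all 3. It was −0.11 for *Fgf11* and −0.12 for *Scn3b*, which overlapped too. Leaving out 1 animal turned the sign for 3 of these genes, to 0.031 for *Fgf13* without 505, 0.077 for *Fgf11* without 508 and 0.014 for *Fgf12* without 511. For *Fgf11* the difference was −0.27 without 505. *Scn2b* was higher by 0.16, with every (+/−) animal above every (+/+) animal (exact permutation p = 0.1, the smallest the design allows). *Ank3* was higher by 0.24 and *Scn4b* by 0.40 (0.17 without 505), both with overlap. On this scale 51.8% of all genes were separated upwards and 0.274% downwards, so *Scn2b* shared its position with most genes.

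The edgeR test with library sizes set by the same markers moved the median of all genes to 0.52 and that of the 8 members to −0.05, and called 0 of 18264 genes, with 6403 at an unadjusted p under 0.05. The log2 fold changes of *Scn2b*, *Scn4b* and *Ank3* were then 0.15, 0.42 and 0.25, with the sign turned, and those of the other 5 lay between −0.13 and −0.03. The members' adjusted p-values from edgeR were 0.321 to 0.909 under this scaling.

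**Figure D4:**
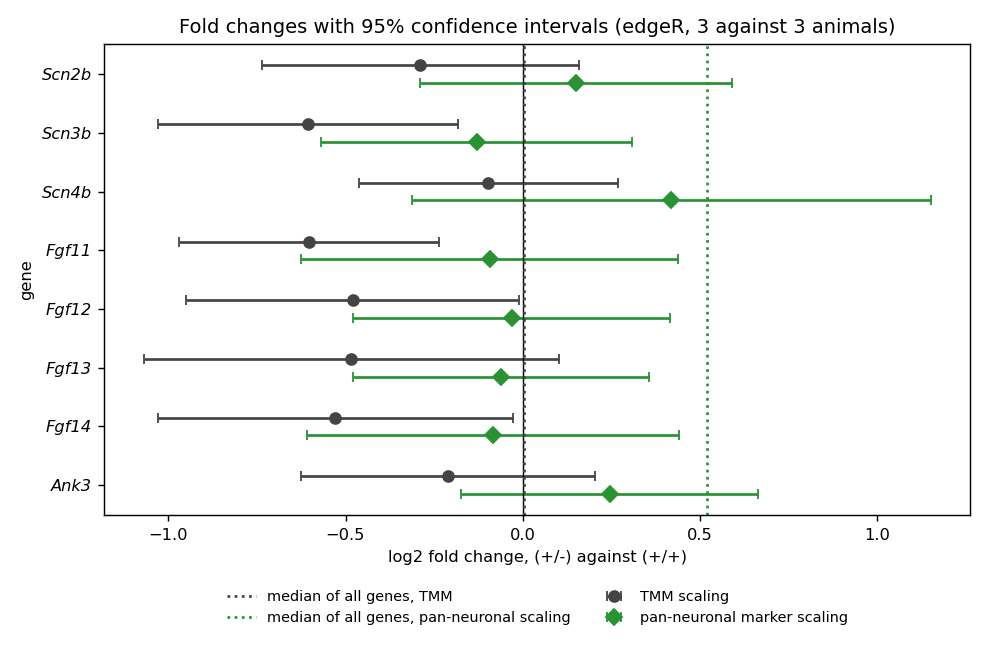
Log2 fold change, (+/−) against (+/+), with 95% confidence intervals from edgeR for the 8 genes (3 against 3 animals) after TMM scaling (circles) and after scaling to 18 pan-neuronal markers (diamonds). Dotted lines mark the median of all genes, 0.0031 and 0.52, and all 8 circles lie below 0 whereas the diamonds lie between −0.13 and 0.42.

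Markers of other cells had log2 fold changes of either sign, with 0 called by edgeR in any list. The 5 glutamatergic and 5 GABAergic markers all had negative log2 fold changes, with medians of −0.50 and −0.64. Of 8 astrocyte markers 6 were positive (median 0.24, summed 11525 to 12674 CPM in (+/−) and 8309 to 12678 CPM in (+/+)), and *Gfap* overlapped. All 8 microglial markers were positive, with a median of 1.01 and sums of 107 to 202 CPM against 81.5 to 102 CPM. Choroid plexus genes were positive for 5 of 6 (median 1.94, 377 to 1411 CPM against 81.6 to 245 CPM). *Ttr* had 1302 CPM in animal 505, the animal lowest for the members. All 5 ependymal (median 1.00) and all 5 meningeal (median 1.26) markers were positive. The meningeal markers summed to 208 to 866 CPM in (+/−) and 102 to 462 CPM in (+/+), with 0 separated. Their mean log2 position was 2.61 in animal 505, 0.38 in 506 and −0.05 in 508, against −0.97 to 0.89 in the controls. Of 8 oligodendrocyte lineage markers, 6 passed the low-count filter, and 4 of them were positive. Of the 5 forebrain region markers 4 were negative, with a median of −0.21. What these lists contribute to the values of the 8 genes was not tested.

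The alpha subunits, which form the pore that the members bind, were listed as 8 genes, of which 6 passed the low-count filter and 0 were called. The sensory neuron channels *Scn10a* and *Scn11a* did not pass it. The 6 tested alpha subunits had a median log2 fold change of −0.35, and −0.072 without animal 505. *Scn1a* had a log2 fold change of −0.62 (adjusted p = 0.168 from edgeR) and *Scn3a* −0.51. Both had every (+/−) animal below the controls, as did 13.5% of all genes. *Scn2a* had −0.32, *Scn8a* −0.38 and *Scn9a* 0.0022, with overlap. *Scn7a*, which encodes a sodium-sensing relative that glia express, had 0.61 with overlap.

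Of 22 partners at the axon initial segment and the node, 21 had negative log2 fold changes and 0 were called, with a median of −0.26 (−0.10 without animal 505). Separated downwards were 8 of them, beside 13.5% of all genes. *Sptbn4*, the spectrin that links ankyrin G to actin, had the lowest p of the list, with a log2 fold change of −0.56 (adjusted p = 0.168 from edgeR). *Ndel1* had −0.26, the scaffold gene *Dlg2* −0.42 and the kinase subunit gene *Csnk2a1* −0.19. *Cntnap2*, which encodes an axonal adhesion protein, had −0.48, and *Trim46*, whose protein bundles microtubules at the initial segment, had −0.32. *Ank2*, the paralogue of *Ank3*, and *Nfasc*, a membrane partner of ankyrin G, were named after their values were seen and had −0.04 and 0.06.

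Of 7 genes for proteases, or subunits of proteases, that cut beta subunits, 6 had positive log2 fold changes and 4 were separated upwards, as were 15.5% of all genes, with a median of 0.16 and 0 called. The alpha-secretase gene *Adam10* had 0.24 and the gamma-secretase gene *Aph1a* 0.22. The beta-secretase gene *Bace1*, named after its value was seen because it was the exception, had −0.25 and was separated downwards.

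Over the 6 animals, the profile of each member was compared with those of 15119 genes by the root mean square difference of log2(CPM + 0.5), each profile centred on its own mean. *Fgf12* and *Fgf14* were alike, at 0.0246, and each was the fifth nearest gene of the other. The 3 genes nearest to *Fgf12* were *Svop*, *Cables2* and *Epha4*, and those nearest to *Fgf14* were *Otud7a*, *Eno2* and *Diras1*. *Eno2* is also on the pan-neuronal list. *Fgf13* was nearest to *Camkv*, *Fbll1* and *Sphkap*, and *Fgf11* to *Extl1*, *Prkab2* and *Bid*. *Scn2b* was nearest to *Pnmal2*, the potassium channel gene *Kcna2* and *Ptpn3*, and *Scn3b* to *Faap100*, *Cacng3* and *Cdh8*. *Scn4b* was nearest to *Cdk19*, *Rgl1* and *B3glct*, and its nearest member, *Ank3*, ranked 9386. *Ank3* was nearest to *Map3k13*, *Tanc2* and *Cnnm1*. These likenesses are over 6 animals that differ in genotype and in their neuronal markers, and carry no test.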

How the data were processed

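RNA of primary mouse cultures from 6 animals, 3 *Myt1l* (+/−) and 3 (+/+), with 2 libraries each, was analysed, with groups from the sample titles. Per gene and library, the authors deposited raw counts of 100 bp paired-end reads from dUTP libraries, mapped to mm10 with STAR (counting tool not given in the sources used here). They also deposited normalised counts per animal and a table of shrunken log2 fold changes, p-values and adjusted p-values, which were not used.

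Libraries were summed by animal. Genes were filtered by genotype with edgeR 4.0.16 in R 4.3.3, TMM-normalised and tested by quasi-likelihood (its older, or legacy, method) with Benjamini-Hochberg adjustment and a threshold of 0.1. Single genes were also compared by an exact permutation test. Log2 levels used a pseudocount of 0.5 CPM. The replicates are separate animals. Libraries held 20181477 to 26594444 counts, and 0 columns of other samples were present. Scripts were tested on simulated data.

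Members and gene lists were chosen with earlier results of these data known. Named were all members, the tested alpha subunits, the 6 initial segment genes and 2 proteases of lowest p, 3 genes of most similar profile per member, cell type markers, *Myt1l* and *Xist*, with exceptions marked in the text. Alternatives were DESeq2 1.42.0 (size factors and Wald test), other low-count filters, limma 3.58.1 voom on 12 libraries, either library alone, genetic sex as a covariate, pan-neuronal scaling, another length and each animal left out. A newer method of edgeR and DESeq2 with genetic sex were added after the data were seen.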

Additional observations from a re-analysis of the deposited data

How the results depend on the processing

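All 8 members kept a negative log2 fold change under every alternative run except pan-neuronal scaling, where *Scn2b* (0.15), *Scn4b* (0.42) and *Ank3* (0.25) turned positive. Under this scaling 0 members were separated downwards, beside 0.701% of all genes. Relative to the marker mean *Scn2b* was separated upwards, as were 51.8% of all genes. DESeq2's Wald test called 1377 genes higher and 786 lower, with 2 members (*Scn3b* −0.62, *Fgf11* −0.61), 1 alpha subunit (*Scn1a*) and 1 initial segment gene (*Sptbn4*). With genetic sex as a covariate, DESeq2 called 224 and 35 genes and 0 members, and edgeR called 0 genes. As the covariate marks animal 511 alone, it is not a check apart from leaving out that animal. Without a low-count filter edgeR called 1021 and 454 genes (1.4% of the genes lower), with *Scn3b* at −0.61 (adjusted p = 0.061) and *Fgf11* at −0.61 (adjusted p = 0.0431), 2 members. Voom of limma on 12 libraries called 2050 and 1918 genes and 5 members (*Scn3b* −0.60, *Fgf11* −0.59, *Fgf12* −0.52, *Fgf13* −0.55, *Fgf14* −0.58). With the library number as a replicate block it called 1868 and 1729 genes and 5 members (−0.60, −0.59, −0.52, −0.55 and −0.57 in the same order). Both fits allow for the libraries of the same animal by a within-animal correlation shared by all genes, 0.80 and 0.81. Their p-values still count more samples than there are animals, with 12 libraries of 6 animals. Called lower were 11.6% and 10.4% of all genes. Library numbers did not pair the animals, as same-numbered libraries of different genotypes correlated at −0.17 to 0.11. The cause of the other differences was not tested.

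Leaving out each animal in turn gave 0 to 2294 genes called higher, 0 to 1109 lower, 0 to 2 members called and 5 to 7 separated, and the calls came only without animal 513. The share of all genes separated downwards ran from 15.2% to 26.8% in these fits, with 7 members beside 21.2% without 508 and 16.8% without 510. The ranges were −0.46 to −0.08 for *Scn2b*, −0.75 to −0.46 for *Scn3b*, −0.17 to −0.03 for *Scn4b*, −0.76 to −0.51 for *Fgf11*, −0.60 to −0.27 for *Fgf12*, −0.66 to −0.22 for *Fgf13*, −0.67 to −0.31 for *Fgf14* and −0.41 to −0.05 for *Ank3*. List medians ran from −0.54 to −0.072 for the alpha subunits (0 to 1 called), −0.39 to −0.10 for the initial segment partners (0 to 1 called) and 0.11 to 0.21 for the proteases. On the longest coding transcript the (+/+) levels were 31.1 (*Scn3b*), 13.8 (*Fgf12*), 95.1 (*Fgf13*), 4.81 (*Fgf14*) and 22.8 (*Ank3*) CPM per kilobase.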
